A study of Mus musculus with 16 samples.

Results

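Chemokine receptors were followed in CD11b+ cells of mouse tumours that had been labelled in vivo by the time they spent in the tumour. The genes were Ccr1, Ccr2, Cx3cr1, Cxcr2, Cxcr4 and Ccrl2, taken by their symbols, 6 of the 24421 genes in the count files. The files held raw read counts of bulk RNA-seq from 16 libraries, 4 in each of 4 groups. Kaede mice carry a protein that turns from green to red under violet light, so that after light is applied to the tumour, cells that are there become Kaede-red and cells that arrive later are Kaede-green. The comparisons ask how the transcripts of myeloid cells differ with tumour dwell.

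The groups were Kaede-green cells at 24h, Kaede-red cells at 24h, Kaede-green cells at 72h and Kaede-red cells at 72h after photoconversion. All groups shared the C57BL/6 genotype, the Kaede transgene, a subcutaneous MC38-Ova tumour (a mouse colon adenocarcinoma line that makes ovalbumin), no treatment and the same batch label. The mice were adult females, and the cells sorted from each tumour were live, positive for CD45, Kaede and CD11b, and negative for TER119 and NK1.1. Photoconversion labels only what is in the tumour at that moment, so Kaede-green cells at 72h may have been there for any time up to the whole interval. Kaede-red cells were defined by the presence of red signal. The study describes the tumours as those of independent mice, which the labels do not state, so p-values measure the spread between these libraries. The labels call the sorted cells macrophages, but CD11b is also on monocytes, neutrophils and some dendritic cells.

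Chemokine receptors are cell surface proteins that couple to inhibitory G proteins and turn a gradient of secreted chemokines into directed movement. In the monocyte and macrophage lineage, Ccr2 (receptor for Ccl2, Ccl7 and Ccl12) takes monocytes out of the bone marrow and into inflamed tissue, Cx3cr1 (receptor for Cx3cl1) marks patrolling monocytes and many tissue macrophages, and Ccr1 binds Ccl3, Ccl5, Ccl6, Ccl7 and Ccl9. Cxcr4 binds Cxcl12 and retains leukocytes in bone marrow, Cxcr2 binds Cxcl1, Cxcl2 and related chemokines and recruits neutrophils, and Ccrl2 is an atypical receptor that holds chemerin (Rarres2) without signalling through G proteins.

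Ccr1, Ccr2, Cx3cr1 and Ccrl2 lie on chromosome 9, and Cxcr2 and Cxcr4 on chromosome 1. In mm10 with GENCODE annotation, all of them protein coding, Ccr1 spans chr9:123962124-123968692 on the minus strand, Ccr2 chr9:124101950-124113557 on the plus strand and Ccrl2 chr9:111054486-111057519 on the minus strand. Ccr1 and Ccr2 are 133 kb apart, and Cx3cr1 lies 3.89 Mb before Ccr1. Cx3cr1 spans chr9:119901616-120069879 on the minus strand in GENCODE, with other genes inside its introns. Its span in RefSeq is much shorter, chr9:120048683-120068296. Cxcr2 is at chr1:74153989-74161246 on the plus strand and Cxcr4 at chr1:128588199-128592293 on the minus strand.

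The bases before the start sites of 4 receptors are shown. Ccrl2 was called as changed only in a comparison added after its values were seen, that of times over both colours. Cx3cr1, Cxcr4 and Ccr1 were each called in at least 1 other comparison. No link between these stretches and the changes of their genes was tested. Each line gives the 250 bases upstream of the RefSeq start site in GRCm38.p6, 5′ to 3′ on the minus strand, the strand of all 4 genes. They are chr9:120068297-120068546 for Cx3cr1, chr1:128592300-128592549 for Cxcr4, chr9:111057519-111057768 for Ccrl2 and chr9:123968693-123968942 for Ccr1. RefSeq lists 3 windows for Ccrl2, of which the outermost was taken. Capitals mark the letters of motifs searched for on both strands.
Cx3cr1: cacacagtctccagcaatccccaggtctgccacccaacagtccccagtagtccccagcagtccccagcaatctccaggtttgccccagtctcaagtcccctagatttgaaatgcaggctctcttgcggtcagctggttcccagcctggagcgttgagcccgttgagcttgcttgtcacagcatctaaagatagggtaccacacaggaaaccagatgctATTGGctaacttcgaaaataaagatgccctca
Cxcr4: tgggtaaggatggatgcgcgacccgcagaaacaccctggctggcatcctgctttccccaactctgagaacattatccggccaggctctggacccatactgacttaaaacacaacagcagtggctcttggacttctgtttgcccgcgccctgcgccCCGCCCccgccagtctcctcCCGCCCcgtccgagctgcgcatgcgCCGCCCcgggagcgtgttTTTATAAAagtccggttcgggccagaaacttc
Ccrl2: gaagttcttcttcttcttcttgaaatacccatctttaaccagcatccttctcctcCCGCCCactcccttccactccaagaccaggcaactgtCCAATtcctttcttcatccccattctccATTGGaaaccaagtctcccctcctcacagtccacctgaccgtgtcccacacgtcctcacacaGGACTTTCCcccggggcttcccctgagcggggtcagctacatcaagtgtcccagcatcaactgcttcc
Ccr1: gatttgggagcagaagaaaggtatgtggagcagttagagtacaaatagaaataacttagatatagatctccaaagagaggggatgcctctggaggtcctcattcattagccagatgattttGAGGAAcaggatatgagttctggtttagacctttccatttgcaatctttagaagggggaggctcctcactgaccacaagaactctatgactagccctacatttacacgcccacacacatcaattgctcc

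The Cxcr4 window held 61.2% G and C and 19 CpG pairs, against a median of 52.4% and 6 over 32851 windows of the same length. In it, TATAAA (the TATA box) began 30 bases before the start site, and its reverse match overlapped it. The GC box GGGCGG was present 3 times on the reverse strand, as CCGCCC, within the 95 bases before the start site. TATAAA was in 12.4% of all windows and GGGCGG in 32.7%. The Ccrl2 window had a GC box, CCAAT once on each strand and GGACTTTCC, a kappaB motif found in 0.283% of windows, 68 bases before the start. Cx3cr1 had 1 CCAAT motif, on the reverse strand 32 bases before the start, which 33.8% of windows held. Ccr1 had 43.6% G and C, 1 CpG and only GAGGAA, the PU.1 core, which 23.3% of windows held. TGACG and TGANTCA, the letters bound by CREB and AP-1, were searched in the same way and were found in 17.8% and 6.75% of windows but in none of these 4. A match is a description of these letters and no evidence of binding.

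The Kaede-green libraries held 3650937 to 10823666 counts and the Kaede-red libraries 3216858 to 15423085. Most counts were of Rn45s, the ribosomal RNA precursor, with 86.5 to 93.4% in Kaede-green and 66.2 to 84.9% in Kaede-red cells at 24h, and 79.0 to 91.0% and 55.8 to 73.8% at 72h. Outside Rn45s, Lars2 and Mir6236, 247829 to 549987 counts were left in Kaede-green and 618803 to 5305788 in Kaede-red libraries, so receptor counts were less precise in Kaede-green cells. Levels are given as CPM, the count of a gene per 1000000 of the library size after TMM scaling. Macrophage markers summed to 163 to 261 CPM in the Kaede-green and 398 to 715 CPM in the Kaede-red libraries at 24h, and to 193 to 259 and 679 to 736 CPM at 72h. Monocyte markers summed to 1035 to 1608 and 464 to 559 CPM at 24h and to 752 to 1125 and 532 to 750 CPM at 72h. The 10 neutrophil markers in the files summed to at most 34.4 CPM in any library, and Ngp was at 0 in all 16. T and NK cell markers summed to at most 5.73 CPM. The part of these differences in the receptor values was not tested, and in bulk RNA fewer cells of a type cannot be told apart from less RNA per cell.

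Divided by the length of its joined GENCODE exons, Ccr1 was the highest of the receptors and Cxcr2 the lowest in all 16 libraries. The place of Ccr1 above Ccr2 rests on the lengths used, 2833 bases for Ccr1 and 6760 for Ccr2. Before this division, Ccr2 had more counts than Ccr1 in every Kaede-red library at 72h. Per kb of GENCODE exon, Ccr1 averaged 52.9 CPM in the Kaede-green group and 41.7 CPM in the Kaede-red group at 24h, then 39.1 and 30.4 CPM at 72h. Ccr2 followed with 21.5, 19.0, 18.03 and 20.2 CPM per kb in the same order, and Cxcr4 with 18.3, 19.8, 13.5 and 12.5 CPM per kb. Thus Ccr2 and Cxcr4 were neighbours whose libraries overlapped in every group other than Kaede-red cells at 72h. There, Ccr2 ranged from 17.4 to 23.6 and Cxcr4 from 9.38 to 14.6 CPM per kb.

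Ccrl2 stood below these, at 5.60, 4.40, 3.61 and 2.78 CPM per kb. Cx3cr1 was lower, at 0.813, 0.615, 0.608 and 1.57 CPM per kb, and in no group did its libraries reach those of Ccrl2. Cxcr2 had 0.0418, 0.0452, 0.0965 and 0.0822 CPM per kb. Among 9287 tested genes with a known length, Ccr1 stood between percentiles 97.3 and 98.0 over the 4 groups, Ccr2 between 94.6 and 96.0, Cxcr4 between 93.3 and 95.5 and Ccrl2 between 77.8 and 87.1. Cx3cr1 ranged from 37.4 to 65.1, and its highest percentile was in Kaede-red cells at 72h. The exon length joins all annotated isoforms, so a receptor that uses a shorter form is understated.

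**Figure D1:**
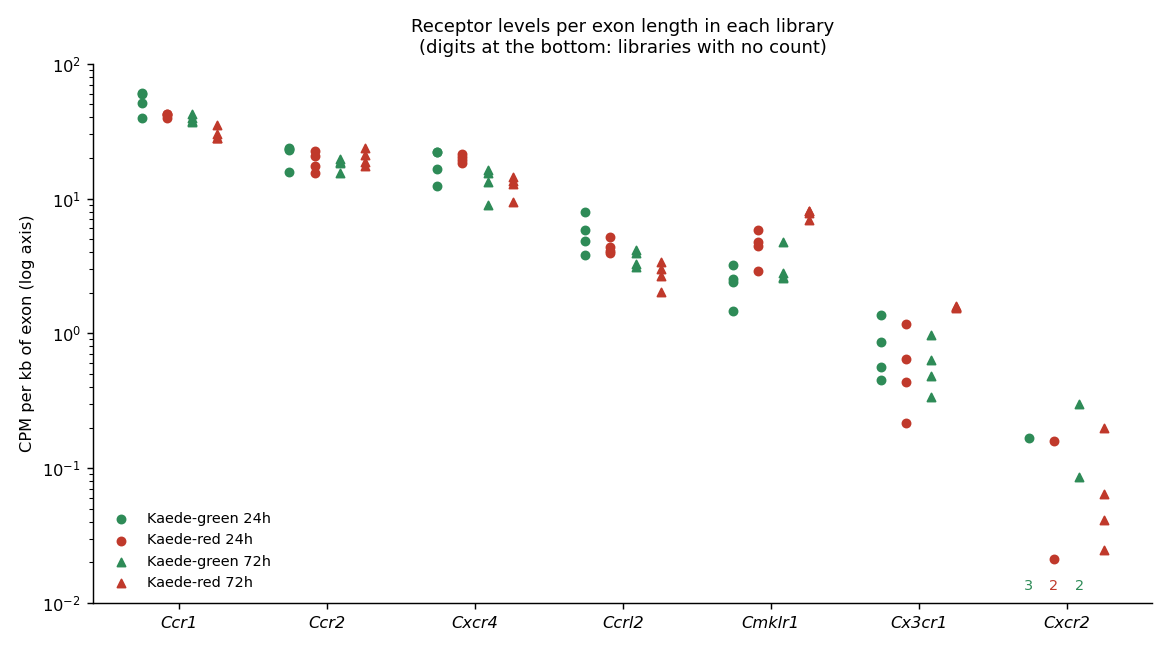
Level of the 6 chemokine receptors and of Cmklr1 in CPM per kb of exon (log axis), 1 point per library, coloured by the 4 groups. Digits at the bottom count libraries with no read. With the exon lengths used, Ccr1 lies above every other receptor in each group, Ccr2 and Cxcr4 overlap in 3 of 4 groups, and Cx3cr1 and Cxcr2 lie lowest.

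Ccr1 had 172, 170, 146 and 112 CPM in the 4 Kaede-green libraries at 24h (149.8 ± 28.1, SD, n = 4). In Kaede-red cells at 24h it had 112, 119, 121 and 121 CPM (118 ± 4.03). At 72h, Kaede-green libraries had 113, 106, 104 and 120 CPM (110.7 ± 7.22) and Kaede-red libraries 85.3, 99.9, 80.2 and 79.2 CPM (86.1 ± 9.55). Every Kaede-red library at 72h thus lay below every other library of the experiment, while the groups at 24h overlapped. Over both times Ccr1 was lower in Kaede-red than in Kaede-green cells, with a log2 fold change of -0.35 (SE 0.13, 95% interval -0.61 to -0.09, adjusted p = 0.0467 by the quasi-likelihood test of edgeR, Benjamini-Hochberg adjusted over 9642 genes). It was the only receptor of the 5 tested that was called in this comparison, where 20.3% of all genes tested were called, 10.3% as lower.

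The Ccr1 call was close to the threshold and was lost in 12 of 16 fits that left out 1 library, with edgeR adjusted p up to 0.0989. It was kept without Kaede-green replicate 4 at 24h, Kaede-green replicate 2 or 3 at 72h, or Kaede-red replicate 2 at 72h, and lost without any other. When libraries were scaled by their counts outside Rn45s, Lars2 and Mir6236, the change of the median tested gene moved from 0.06 to 0.26 on the log2 scale and Ccr1 changed by -0.15, no longer called. With that scaling 1920 of 2541 called genes were higher in Kaede-red cells, against 969 of 1959. Within 24h the log2 fold change of Ccr1 was -0.34 (95% interval -0.71 to 0.02, adjusted p = 0.280) and within 72h -0.36 (-0.73 to 0.00, adjusted p = 0.172, the same edgeR fit), with no overlap between libraries at 72h, as for 22.6% of genes tested. From 24h to 72h its log2 fold change was -0.45 in Kaede-red cells (-0.82 to -0.09, adjusted p = 0.111), again with no overlap, as for 20.6% of genes, and -0.43 in Kaede-green cells (-0.80 to -0.07, adjusted p = 0.480). Neither passed the edgeR test.

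Ccr2 was not called in any comparison. It had 161, 159, 156 and 107 CPM in the Kaede-green and 151, 139, 118 and 105 CPM in the Kaede-red libraries at 24h. At 72h it had 104, 132, 127 and 124.9 CPM in the Kaede-green and 117, 143, 160 and 127 CPM in the Kaede-red libraries. The 4 groups overlapped one another, with means and SDs of 146 ± 25.7, 128 ± 20.4, 122 ± 12.2 and 137 ± 18.5 CPM. Over both times the log2 fold change of Kaede-red against Kaede-green cells was -0.01 (95% interval -0.28 to 0.26, edgeR adjusted p = 0.977). The intervals at 24h (-0.57 to 0.20), at 72h (-0.22 to 0.55) and with time in Kaede-green (-0.65 to 0.13) and Kaede-red cells (-0.29 to 0.47) also held 0. A change of 0.65 on the log2 scale lies inside the widest of them, so equal levels were not shown. The sign of the difference over both times turned under 3 other settings, with values up to 0.20. How reads that fit more than 1 gene were counted is not given in the sources used here.

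Cxcr4 was lower at 72h than at 24h in Kaede-red cells. Its values in Kaede-red cells were 33.1, 38.6, 34.7 and 36.6 CPM at 24h (35.7 ± 2.36) and 23.1, 26.3, 24.3 and 16.95 CPM at 72h (22.7 ± 4.04), with no overlap. This was a log2 fold change of -0.66 (SE 0.21, 95% interval -1.08 to -0.24), 36.7% lower, with adjusted p = 0.0418 by edgeR's quasi-likelihood test. In Kaede-green cells Cxcr4 had 40.1, 40.1, 22.4 and 29.9 CPM at 24h (33.1 ± 8.64) and 16.1, 23.8, 29.7 and 27.8 CPM at 72h (24.4 ± 6.03). These groups overlapped, and the log2 fold change was -0.42 (-0.88 to 0.04, edgeR adjusted p = 0.631). Between colours no difference was called over both times (log2 fold change 0.00, interval -0.31 to 0.31, edgeR adjusted p = 0.991), at 24h (0.12, -0.32 to 0.56) or at 72h (-0.12, -0.55 to 0.32).

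In Kaede-red cells 2 of the 5 tested receptors were called with time, Cxcr4 as lower and Cx3cr1 as higher, where 8.68% of all genes tested were called, 3.76% as lower and 4.92% as higher. The Cxcr4 call was lost in each of the 8 fits that left out 1 of the Kaede-red libraries, with edgeR adjusted p between 0.0526 and 0.170. Of 10 other settings 7 kept it. It was lost when the Rn45s share was a covariate (log2 fold change -0.63, edgeR adjusted p = 0.172), when Kaede-red libraries were thinned to the depth of Kaede-green ones (-0.67, 0.0556) and with no filter on low counts (-0.58, 0.133).

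The group means of Ccrl2 stood in the same order as those of Ccr1. It had 15.1, 20.5, 9.94 and 12.7 CPM in the Kaede-green (14.5 ± 4.48) and 10.6, 13.4, 11.4 and 10.3 CPM in the Kaede-red libraries at 24h (11.4 ± 1.39). At 72h it had 10.2, 8.55, 10.7 and 8.06 CPM in the Kaede-green (9.39 ± 1.28) and 8.77, 7.82, 6.96 and 5.31 CPM in the Kaede-red libraries (7.21 ± 1.47). Kaede-red libraries at 72h lay below those at 24h with no overlap. The log2 fold change there was -0.66 (SE 0.23, 95% interval -1.12 to -0.20), but edgeR's adjusted p of 0.0629 missed the threshold. Ccrl2 was called there in 7 of 10 other settings, with adjusted p from 0.0120 to 0.234 by edgeR or DESeq2, and in 3 of 16 fits that left out 1 library, each without Kaede-green replicate 2, 3 or 4 at 24h. In Kaede-green cells it was -0.61 (-1.14 to -0.08, adjusted p = 0.495 by edgeR), with groups that overlapped, and between colours over both times it was -0.36 (-0.71 to 0.00, adjusted p = 0.149).

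The fitted changes with time of Ccr1, Cxcr4 and Ccrl2 were negative in cells of either colour, so the mean of both changes was also tested, a comparison added after these values were seen. Ccrl2 was then called with a log2 fold change of -0.64 (95% interval -0.99 to -0.28, edgeR adjusted p = 0.0498), where 1.71% of all genes tested were called, 0.902% as lower. Cxcr4 (-0.54, adjusted p = 0.0565 by edgeR) and Ccr1 (-0.44, adjusted p = 0.0579) missed the threshold. The libraries of both times overlapped for all 3, and 0.0519% of genes tested had none that overlapped. The Ccrl2 call was lost in 13 of 16 fits without 1 library, with edgeR adjusted p up to 0.113, and kept without Kaede-green replicate 3 or 4 at 24h or Kaede-green replicate 3 at 72h. Of 9 other settings 6 kept it. It was lost with no filter on low counts (log2 fold change -0.59, edgeR adjusted p = 0.105) and with thinning (-0.71, 0.0515). The Rn45s share as a covariate also lost it (-0.62, 0.251).

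Cx3cr1 went the other way and reached its highest level in the Kaede-red group at 72h. There it had 7.16, 7.09, 6.96 and 7.10 CPM (7.08 ± 0.0862), from 183, 281, 46 and 337 counts. Kaede-green libraries at 72h had 4.39, 1.53, 2.19 and 2.86 CPM (2.74 ± 1.22), from 12, 5, 9 and 11 counts. No library of the first group overlapped the second. Cx3cr1 was thus 2.63-fold higher in Kaede-red than in Kaede-green cells at 72h (95% interval 1.47 to 4.71, log2 fold change 1.40, SE 0.41), with adjusted p = 0.0161 by edgeR's quasi-likelihood test. It was the only receptor of 5 called at 72h, where 16.8% of genes tested were called, 8.06% as higher.

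At 24h Cx3cr1 varied over a wider range within groups. It had 3.90, 6.15, 2.55 and 2.04 CPM in the Kaede-green (3.66 ± 1.83, from 5 to 15 counts) and 5.27, 1.95, 2.90 and 0.969 CPM in the Kaede-red libraries (2.77 ± 1.84, from 15 to 60 counts). These groups overlapped, and the log2 fold change was -0.38 (95% interval -1.29 to 0.54, edgeR adjusted p = 0.694). Over both times it was 0.51 (-0.11 to 1.13, edgeR adjusted p = 0.253). No receptor was called at 24h, where 7.50% of genes tested were called. DESeq2 called 1 receptor there, Ccr1, and none had an unadjusted edgeR p under 0.05. From 24h to 72h in Kaede-red cells, Cx3cr1 was 2.57-fold higher (1.55 to 4.29, log2 fold change 1.36, SE 0.36, edgeR adjusted p = 0.0172), with no overlap. In Kaede-green cells the log2 fold change was -0.41 (-1.42 to 0.60, edgeR adjusted p = 0.860). Markers moved in these comparisons too. At 72h 9 of 9 macrophage markers were higher in Kaede-red cells, against 8.06% of all genes tested, and 1 of 7 monocyte markers was lower. With time in Kaede-red cells 4 of 7 monocyte and 1 of 9 macrophage markers were higher, against 4.92% of all genes tested. Already at 24h, where Cx3cr1 was not called, 8 of 9 macrophage markers were higher and 5 of 7 monocyte markers lower in Kaede-red cells. All 4 tested fibroblast markers were lower in Kaede-red cells at 72h, where the 6 of the list summed to 45.5 to 49.9 CPM in the Kaede-green and 12.0 to 19.2 CPM in the Kaede-red libraries. Of 4 markers of dividing cells, 2 were lower with time in Kaede-red cells, where they summed to 23.5 to 55.0 CPM at 24h and 19.0 to 26.8 CPM at 72h. Endothelial markers were higher for 2 of 3 tested in Kaede-red cells at 72h, with sums of 9.77 to 18.97 against 21.9 to 36.9 CPM. The part of these markers in the Cx3cr1 values was not tested.

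Whether the difference between colours changed from 24h to 72h was tested directly by the interaction of Kaede fluorescence and time. For Cx3cr1 this was 1.77 on the log2 scale (95% interval 0.52 to 3.03, SE 0.61), with edgeR adjusted p = 0.148, so the step from 24h to 72h was not shown to differ between colours. Of the 5 receptors 0 were called, where 0.757% of genes tested were, and Cx3cr1 was the only one with an unadjusted p under 0.05. DESeq2 called none either. Without the first Kaede-red library at 24h, which had the highest Cx3cr1 level of its group, the interaction was 2.39 with edgeR adjusted p = 0.0383.

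The low counts limit the Cx3cr1 values in Kaede-green cells. A count of 5, the lowest, has an exact 95% Poisson interval of 1.62 to 11.7, and one of 46 an interval of 33.7 to 61.4, which cover counting error only. The call at 72h was lost without the second Kaede-green library at 72h (log2 fold change 1.19, edgeR adjusted p = 0.0784) or the third (1.28, adjusted p = 0.0626). The call with time in Kaede-red cells was lost without the second (1.24, adjusted p = 0.0579) or the fourth Kaede-red library at 24h (1.03, adjusted p = 0.101), or the first at 72h (1.36, adjusted p = 0.0566). With the Rn45s share as a covariate, both calls were lost, at 0.53 for 72h (edgeR adjusted p = 0.870) and 1.07 with time (0.165). They were lost with thinning too, at 1.28 (edgeR adjusted p = 0.0666) and 1.21 (0.146). An antisense gene, Gm33858, overlaps a Cx3cr1 exon and is not counted in the files. Whether the counting used strand is not given in the sources used here.

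**Figure D2:**
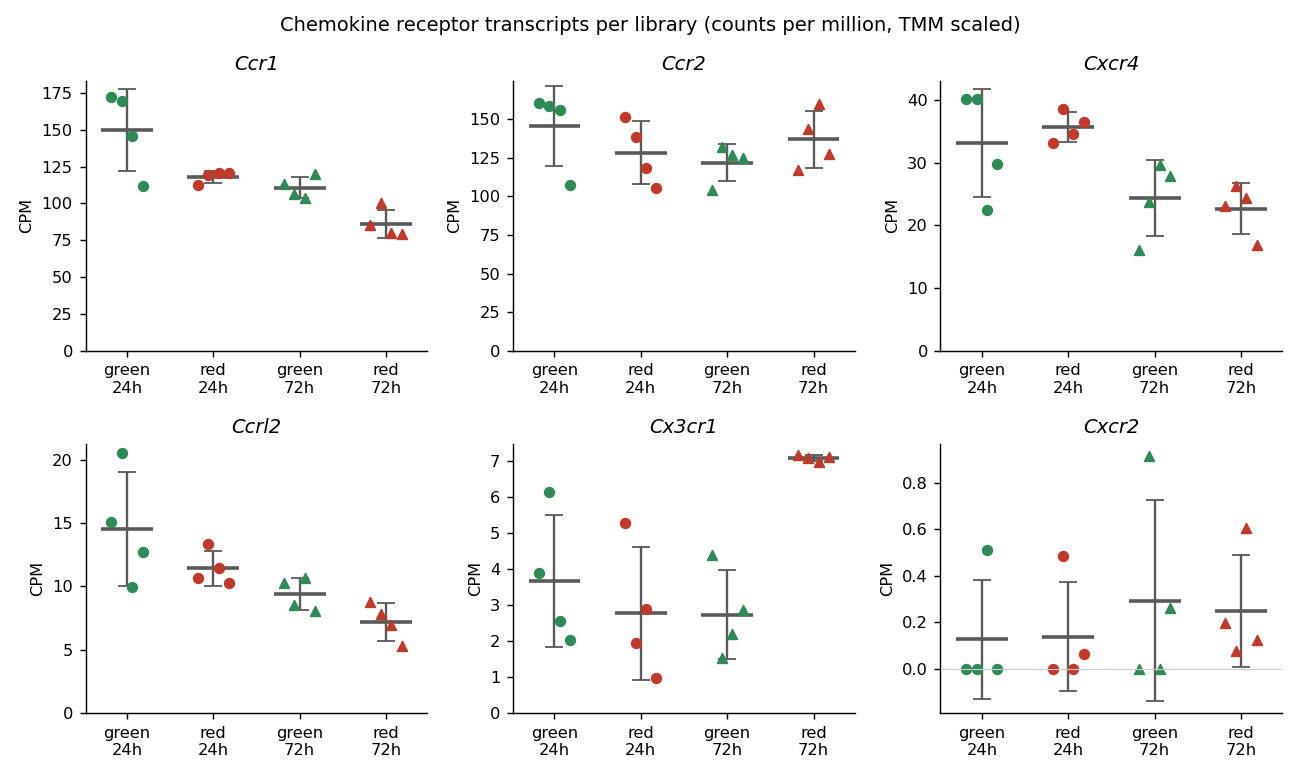
CPM of each of the 6 receptors (1 panel each, linear axes) in the 16 libraries, by group, with points for libraries and bars for mean ± SD of 4 libraries. Cx3cr1 sits between 6.96 and 7.16 CPM in the Kaede-red libraries at 72h and below them elsewhere, and Ccr1, Cxcr4 and Ccrl2 are lower in those libraries than in Kaede-red libraries at 24h.

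Cxcr2, the neutrophil receptor, was close to the limit of detection. It had 0, 0, 2 and 0 counts in Kaede-green and 0, 4, 0 and 1 counts in Kaede-red libraries at 24h. At 72h it had 0, 3, 0 and 1 counts in Kaede-green and 5, 3, 4 and 6 counts in Kaede-red libraries. It was not tested, since it fell under the filter on low counts. Summed over a group, the level was 0.189, 0.123, 0.286 and 0.151 CPM in the same order, from 2 (exact 95% Poisson interval 0.242 to 7.22), 5 (1.62 to 11.7), 4 (1.09 to 10.2) and 18 counts (10.7 to 28.4). Cxcr2 was seen in all 4 Kaede-red libraries at 72h, which held more counts outside Rn45s, Lars2 and Mir6236 than any Kaede-green library. A count of 3 in a single library stood for 0.0632 to 1.67 CPM over all libraries. In the 7 libraries with no count it stood for 0.264 to 1.67 CPM, so these allow levels up to such values. No difference was detectable at this depth.

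In Kaede-green cells 0 of the 5 tested receptors were called between 24h and 72h by edgeR, and 0% of all genes were. DESeq2 called 13 genes there, and 835 genes had an unadjusted edgeR p under 0.05, among them Ccr1 and Ccrl2. All 5 fitted changes were negative, with a median of -0.42 on the log2 scale against 0.03 over all genes tested. In Kaede-red cells 3 of 5 were negative, with a median of -0.45 against -0.01. The comparisons share libraries, so these counts are not independent.

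**Figure D3:**
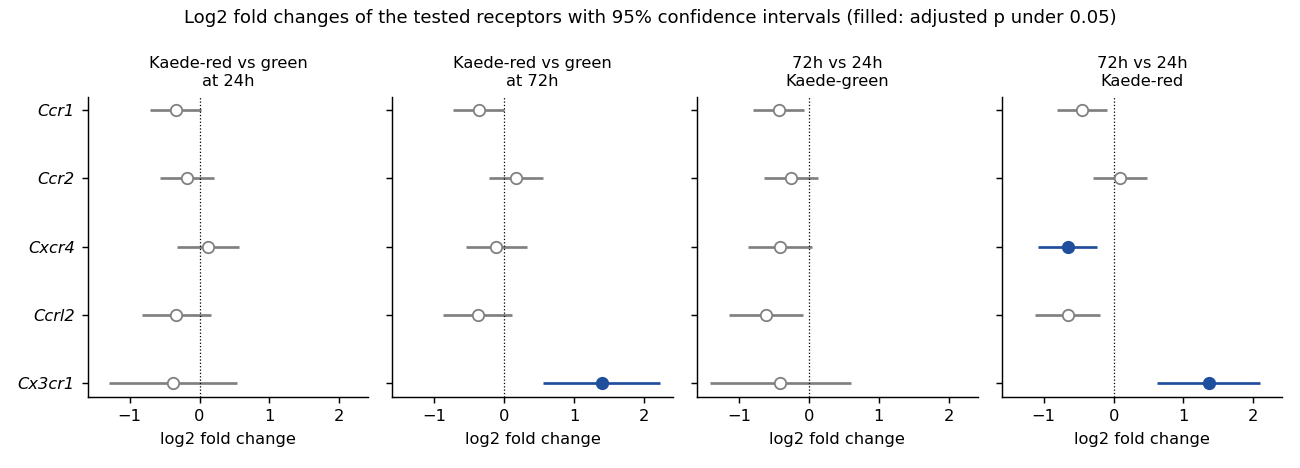
Log2 fold change of the 5 tested receptors with 95% intervals in 4 comparisons (Kaede-red against Kaede-green at each time, and 72h against 24h within each colour). Filled points had an adjusted p under 0.05. These are Cx3cr1 at 72h and with time in Kaede-red cells (1.40 and 1.36) and Cxcr4 with time in Kaede-red cells (-0.66).

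As ribosomal RNA took most counts, each receptor was also expressed as the ratio of its counts to those of Ccr2 in the same library, which needs no scaling factor. This measure was added after the values were seen. The log2 ratio of Ccr1 to Ccr2 averaged 0.04 ± 0.09 for Kaede-green and -0.11 ± 0.27 for Kaede-red libraries at 24h, then -0.14 ± 0.20 and -0.66 ± 0.24 at 72h (SD, n = 4). In Kaede-green cells the counts of both genes were thus about equal, and in Kaede-red cells at 72h Ccr2 took 48.5 to 57.3% of all counts of the 6 receptors and Ccr1 28.8 to 35.3%. The Cx3cr1 ratio was -5.43 ± 0.54 and -5.78 ± 0.85 at 24h, then -5.58 ± 0.78 for Kaede-green and -4.26 ± 0.21 for Kaede-red libraries at 72h.

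In Kaede-red libraries the Cxcr4 ratio to Ccr2 was -1.83 ± 0.27 at 24h, then -2.60 ± 0.26 at 72h. The ratios of Ccr1 and Cx3cr1 did not overlap between colours at 72h (differences of -0.53 and 1.31), nor between times in Kaede-red cells (-0.56 and 1.51), and those of Cxcr4 did not between times in Kaede-red cells (-0.77). Each of these 5 had p = 0.0286 by a two-sided exact permutation test, the smallest that 4 against 4 libraries allow. After adjustment over the 16 tests of this kind the permutation p was 0.0914, so none passed. As p could go no lower, ratios without overlap could pass only if more of the 16 also reached this floor. That none passed therefore says little about these 5. For Ccrl2 the difference with time in Kaede-red cells was -0.78 (exact permutation p = 0.0571, adjusted 0.152). A ratio shows unequal change of both genes and not which of them changed.

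**Figure D4:**
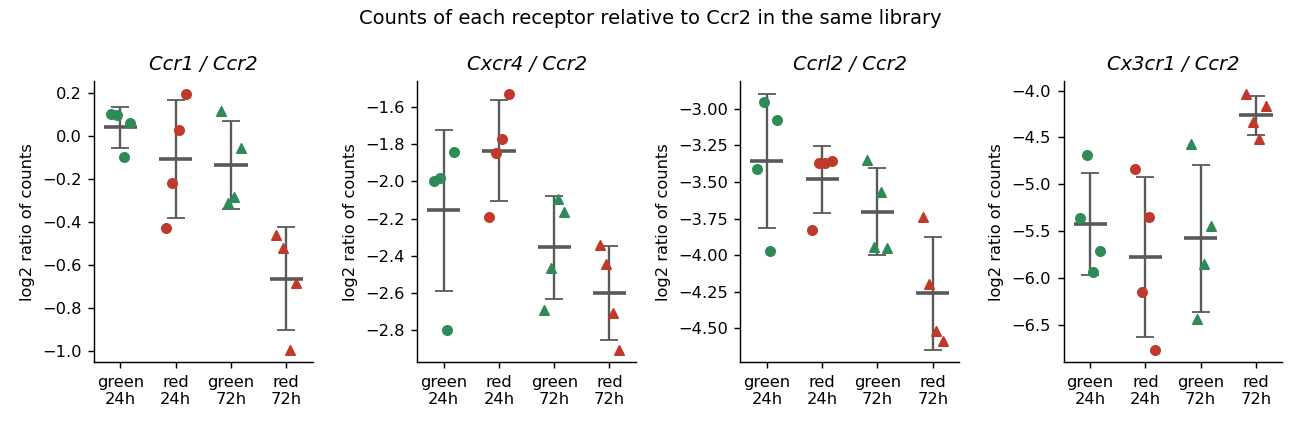
Log2 ratio of the counts of Ccr1, Cxcr4, Ccrl2 and Cx3cr1 to those of Ccr2 within each of the 16 libraries, by group, with mean ± SD. In Kaede-red cells at 72h the mean ratio is lowest for Ccr1, Cxcr4 and Ccrl2 (-0.66, -2.60 and -4.26) and highest for Cx3cr1 (-4.26).

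Of 20 other chemokine and chemerin receptors, 17 were under the filter on low counts and 4 of those had no count in 16 libraries. The highest count of any of the 17 was 19 in a library. Ccr7, which guides dendritic cells to lymph nodes, had no count in the Kaede-green libraries at 24h and 0 to 4 at 72h, against 6 to 22 and 5 to 90 in the deeper Kaede-red libraries.

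Cmklr1, the signalling receptor for the chemerin that Ccrl2 binds, was higher in Kaede-red than in Kaede-green cells. At 24h it had 5.02, 8.60, 10.96 and 8.18 CPM in the Kaede-green libraries and 20.03, 16.3, 15.2 and 9.89 CPM in the Kaede-red libraries, which overlapped. At 72h it had 9.50, 8.85, 8.76 and 16.1 CPM in the Kaede-green libraries and 27.6, 27.8, 23.4 and 26.6 CPM in the Kaede-red libraries, with no overlap. Between colours its log2 fold change was 1.07 for both times together, 0.85 within 24h and 1.28 within 72h, and with time in Kaede-red cells it was 0.79. The edgeR adjusted p-values were 4.09e-05, 0.0425, 0.000306 and 0.0271. With the Rn45s share as a covariate none of these was called. Chemerin itself, Rarres2, had 0 to 7 counts per library.

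Of 17 ligands listed for the 6 receptors, 12 were tested. In Kaede-red cells 6 were lower at 72h than at 24h and none was higher (edgeR adjusted p under 0.05). Of all genes tested, 3.76% were called as lower there. The monocyte attractants Ccl2 (log2 fold change -0.75, adjusted p = 0.027), Ccl7 (-1.15, 0.00597) and Ccl12 (-1.0, 0.0092), all ligands of Ccr2, were among them. So were the Ccr1 ligands Ccl6 (-0.92, edgeR adjusted p = 0.02) and Ccl9 (-1.07, 0.00889), and Cxcl2, a ligand of Cxcr2 (-1.75, 0.000978). The median over the 12 was -1.04, against -0.01 over all genes tested. In these libraries Ccl2 went from 108 ± 13.4 to 64.2 ± 17.2 CPM and Cxcl2 from 18.8 ± 6.71 to 5.93 ± 2.83 CPM. In Kaede-green cells none was called with time.

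Between colours the ligands moved in both directions. Over both times 4 were higher in Kaede-red cells, namely Ccl5 (0.69), Ccl7 (0.67), Ccl8 (2.61, edgeR adjusted p = 2.61e-05) and Cxcl3 (1.35), and 2 were lower, Ccl9 (-1.16, edgeR adjusted p = 1.52e-05) and Cxcl2 (-0.76). In this comparison 20.3% of all genes tested were called, 10.3% as lower. Ccl8 was listed as a ligand of Ccr2, and which receptor it acts on in mouse was not examined here. At 24h Ccl9 had 331 ± 103 CPM in the Kaede-green libraries and 189 ± 35.4 CPM in the Kaede-red ones, and at 72h 256 ± 68.2 and 90.2 ± 32.8 CPM. Ccl7 was highest in Kaede-red cells at 24h, at 151 ± 36.6 CPM, against 69.7 ± 9.88 CPM in Kaede-green cells. Cx3cl1 and Cxcl12, the ligands of Cx3cr1 and Cxcr4, had at most 20 and 12 counts in a library and were not tested. With the Rn45s share as a covariate, 1 of the 12 ligands was called with time in Kaede-red cells (Cxcl2) and 2 between colours over both times (Ccl7 and Ccl8). Scaled by counts outside Rn45s, Lars2 and Mir6236, Cxcl2 was no longer called between colours over both times, and was still called as lower at 72h.

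Of 22 genes that carry or end the receptor signal, 7 were higher and 1 was lower at 72h in Kaede-red cells. Of all genes tested, 4.92% were called as higher and 3.76% as lower there. The higher ones of the 22 were Gnai2 (0.68 on the log2 scale), an inhibitory G protein subunit, the kinase subunits Pik3cg (1.08) and Pik3r5 (0.86), the Rac activators Prex1 (1.03) and Dock2 (0.75), the GTPase Rac2 (1.03) and Adrbk1 (0.89), which encodes the receptor kinase Grk2. Between colours 7 of the 22 were higher in Kaede-red cells over both times, among them Gnai2 (0.77), Pik3cg (1.26) and the arrestin Arrb2 (1.20), and 2 were lower, Grk5 (-0.86) and Rgs18 (-1.62). There, 20.3% of all genes tested were called, 10.3% as lower. At 24h Arrb2 averaged 12.7 CPM in the Kaede-green libraries and 32.0 CPM in the Kaede-red ones, and at 72h 20.9 and 43.8 CPM. The median change of the 22 with time in Kaede-red cells was 0.56, against -0.01 over all genes tested. With the Rn45s share as a covariate, only Prex1 and Rgs1 were called with time in Kaede-red cells, only Rgs1 between colours over both times, and none between colours at 72h.

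Rgs1, which shortens G protein signals of chemokine receptors, was the gene of the 22 that fell with time in Kaede-red cells (-1.64 on the log2 scale, edgeR adjusted p = 4.88e-05). At 24h it had 22.1 ± 7.99 CPM in the Kaede-green libraries and 104 ± 20.2 CPM in the Kaede-red ones, and at 72h 33.1 ± 1.47 and 33.3 ± 3.04 CPM. The difference between colours was thus 2.26 at 24h (edgeR adjusted p = 9.39e-08) and 0.01 at 72h. It was the only one of the listed ligands and signalling genes for which the interaction passed (-2.25, 95% interval -2.90 to -1.61, edgeR adjusted p = 0.000478).

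**Figure D5:**
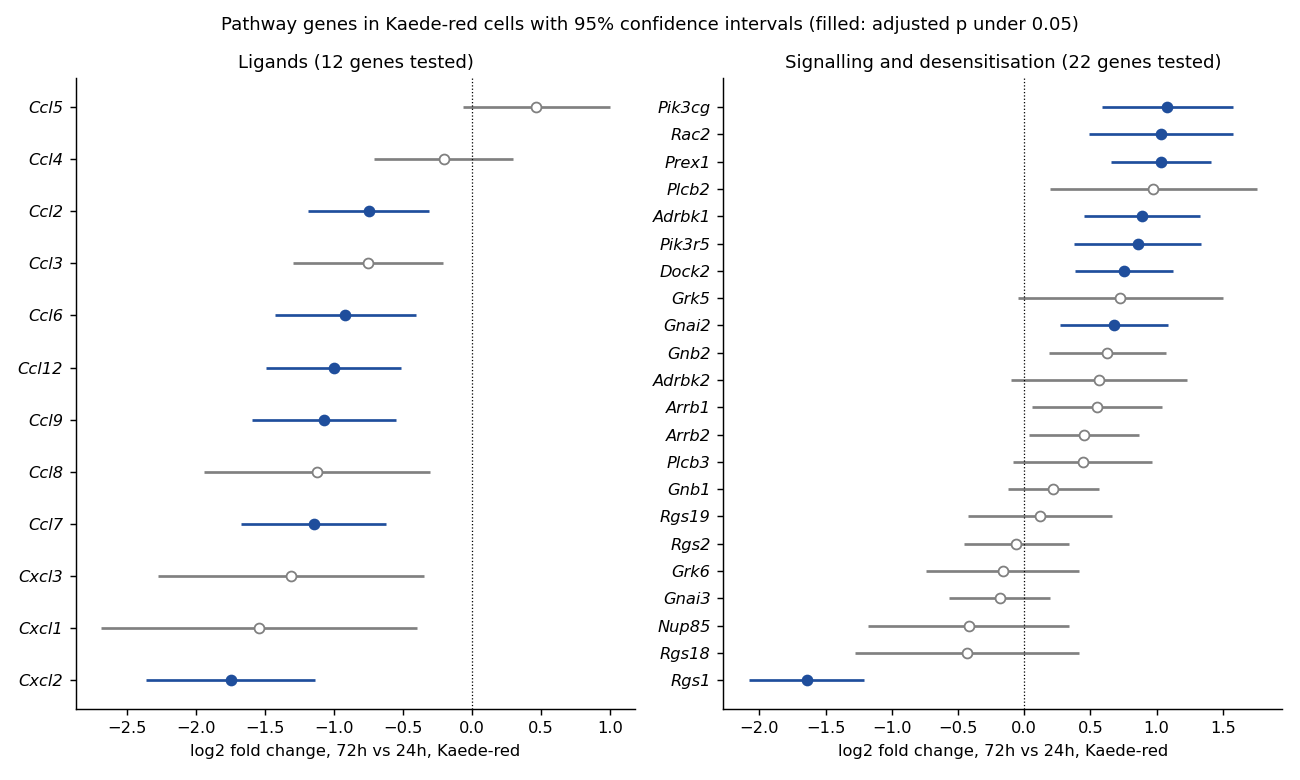
Log2 fold change at 72h against 24h in Kaede-red cells with 95% intervals for the 12 tested ligands and the 22 signalling genes. Filled points had an adjusted p under 0.05. The 6 called ligands are all lower (-0.75 to -1.75), and 7 of the 8 called signalling genes are higher, with Rgs1 lower (-1.64).

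The genes with the pattern most like each receptor were found from log2 CPM centred on its mean, by the root mean square difference over the 16 libraries. For Ccr1 these were Ostf1 (0.11), Ube2d3 (0.16) and Sirpb1a (0.17), against a median of 0.72 over 9641 genes. For Ccr2 they were Rab1 (0.11), Rac1 (0.16) and Agps (0.16), with a median of 0.66. The nearest to Cxcr4 were Psmb6 (0.19), Atg12 (0.21) and Tmem219 (0.21), and to Ccrl2 Rhob (0.19), Ninj1 (0.23) and Dusp1 (0.25). Cx3cr1 had no gene as close, with Sema4a (0.40), Was (0.43) and Inpp5d (0.46), and its own libraries varied the most, by 0.82 about their mean. No test was made of this likeness, since 16 libraries of 4 groups give many genes a like pattern.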

How the data were processed

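Sorted Kaede-green and Kaede-red CD11b+ cells were measured by total RNA-seq with a stranded low-input kit. The deposited values were raw counts per gene with no normalization. Per the labels, the authors used Trim Galore, FastQC, HISAT2 on mm10 and featureCounts, while the annotation and strand setting of the counting are not given in the sources used here. No column of values was unused (0). The 6 genes and all gene lists were chosen with earlier results of these data known.

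Counts were tested with edgeR 4.0.16 in R 4.3.3, with TMM scaling, filterByExpr with its defaults (9642 genes kept), a mean for each group and the quasi-likelihood test, fitted once to the 16 libraries. Benjamini-Hochberg adjustment was over every gene tested, with a threshold of 0.05. CPM used the TMM-scaled library size, and log2 CPM used a prior count of 2. DESeq2 1.42.0, other scalings and filters, a replicate block, thinning of Kaede-red libraries, the Rn45s share as a covariate and leaving out each library were alternatives. The comparison of times over both colours and the ratio to Ccr2 were added after the values were seen. Exon lengths and positions were from GENCODE for 23376 of 24421 symbols (95.7%). The test was checked on simulated counts with known changes in Kaede-red cells. Changes of 1 on the log2 scale were called for 22% of such genes at 24h and 38% at 72h. For changes of 0.5 it was 2% and 4%. The simulation changed 50 genes of each size, fewer in all than the 723 and 1622 called in the data at 24h and 72h. With fewer changed genes the adjustment is stricter, so these shares may be too low for the data. For the interaction, 32% of changes of 1.5 and 48% of changes of 2 were called. A gene that was not called may thus have changed. The 24 pairs of replicates had a chi-square per gene of 3.21 to 95.6, so none was a copy. Among Kaede-red libraries at 24h it was 3.21 between replicates 1 and 2 and 5.66 between replicates 3 and 4. Across these pairs it was 33.5 to 78.4. The deviations of Kaede-green libraries at 24h followed the same split. Those of replicates 1 and 2 correlated at 0.07 to 0.15 with Kaede-red replicates 1 and 2. Those of replicates 3 and 4 correlated at 0.05 to 0.15 with Kaede-red replicates 3 and 4. Every correlation across the split was negative, from -0.13 to -0.03. The main fit treated the 4 libraries of a group as unrelated, and the cause of the split was not tested. Genes named beside the 6 receptors are those of the lists that passed the test in the comparison described, other receptors, and the 3 genes most like each receptor. A result for 1 of the listed genes is not reported here.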

Additional observations from a re-analysis of the deposited data

Results flagged for a closer look

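Each of the 6 receptors was screened for a library far from the other 3 in each of 4 groups, and 3 of the 24 groups had one, where chance sets apart about 1 in 20. Ccr2 had its lowest value of Kaede-green cells at 24h in replicate 4, at 107 CPM, and the gap to the next library was 0.918 of the group's range, against a critical value of 0.829. In both other cases Cxcr2 rested on a few counts. Replicate 3 of Kaede-green cells at 24h had 0.510 CPM from 2 counts while the other libraries had none, and replicate 2 of Kaede-red cells at 24h had 0.487 CPM from 4 counts, with a gap of 0.867 of the range. Rgs1 was set apart because its difference between colours changed from 24h to 72h, by -2.25 on the log2 scale (edgeR adjusted p = 0.000478). The explanation of these values was not tested.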

How the results depend on the processing

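Of 907 values of the receptors under other settings, 782 kept their direction and their side of the threshold, 52 lost a call, 33 gained one and 40 changed sign. The number of receptors called over both times was 1, and it was 0 with scaling by counts outside Rn45s, Lars2 and Mir6236 (the outside scaling), with no filter, with the replicate block within time and with the Rn45s share as a covariate. At 24h DESeq2 called 1 in place of 0. At 72h the count of 1 became 2 with DESeq2 and 0 with at least 10 counts in every library (Cx3cr1 then went untested), with thinning and with the covariate. With time in Kaede-red cells the count of 2 became 4 with DESeq2 and in a fit without these 3 genes, 3 with RLE factors, the outside scaling, the replicate block, only the groups compared or at least 10 counts, 1 with no filter, and 0 with thinning and with the covariate. Ccrl2 was the one gained in the first 4 of those 5 settings, and with at least 10 counts Ccrl2 and Ccr1 were called and Cx3cr1 went untested. Over both colours the count of 1 with time became 3 with DESeq2, RLE factors, the outside scaling, the fit without them or at least 10 counts, 2 with the replicate block or thinning, and 0 with no filter or the covariate. Ccrl2 was not among the 2 called with thinning. Without 1 library the counts ranged from 0 to 1 over both times, at 72h and for the interaction, and from 0 to 3 with time in Kaede-red cells and over both colours. They were 0 at 24h and with time in Kaede-green cells in each of these fits. The cause was not tested.

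With all libraries kept, the values that changed sign lay between -0.30 and 0.20. Ccr2 over both times was 0.20 with the outside scaling, 0.11 with no filter and 0.056 with at least 10 counts, and 0.049 at 24h with that scaling and -0.039 at 72h with the covariate. Cxcr4 over both times was -0.0214 with DESeq2, -0.0262 with RLE factors, -0.015 in the fit without those genes and -0.082 with thinning, and at 72h 0.068 with the outside scaling and 0.030 with no filter. Cx3cr1 over both times was -0.30 with the covariate, against 0.51 in the main fit. The interaction was 0.042 for Ccr1 and 0.014 for Ccrl2 with no filter. Without 1 library, the interaction ranged from -0.095 to 0.092 for Ccr1 and from -0.27 to 0.11 for Ccrl2, Ccr2 over both times from -0.082 to 0.037, Cx3cr1 at 24h from -0.98 to 0.0052, and Cxcr4 from -0.050 to 0.23 at 24h, -0.27 to 0.0041 at 72h and -0.092 to 0.063 over both times.

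Replicate numbers recur in each group, with same-number correlations of -0.02 to 0.15, over 0.1 in 1 of 8 pairs. In each colour 2 libraries correlated best with their own number. At 24h numbers 1 and 2 went together across colours, as did 3 and 4. No pairing was assumed. With the replicate block, 1852 genes were called over both times, 1573 at 72h and 877 with time in Kaede-red cells, against 1959, 1622 and 837.

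Over all genes, the calls with time in Kaede-green cells were 0, against 13 with DESeq2 and 37 with no filter. Those of the interaction were 73, against 341 with DESeq2, 216 with no filter, 156 with at least 10 counts, 165 with the block within time, 35 with thinning and 34 with the covariate, and those over both colours were 165, against 490 with DESeq2, 306 with no filter, 394 with at least 10 counts, 264 with the block and 4 with the covariate. With time in Kaede-red cells 837 became 1604 with only the groups compared and 533 with thinning. The covariate left 156 over both times, 206 at 24h, 101 at 72h and 110 with time in Kaede-red cells, against 1959, 723, 1622 and 837.

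The Kaede-green libraries, with 247829 to 549987 counts outside those genes, limit Cx3cr1 and Cxcr2 most. The Rn45s share moved with colour, and their parts cannot be told apart by these libraries alone. Without 1 library the calls ranged from 1582 to 2082 over both times, from 503 to 765 at 24h, from 1146 to 1910 at 72h and from 0 to 2 with time in Kaede-green cells. With time in Kaede-red cells they ranged from 280 (without Kaede-red replicate 1 at 72h) to 1108 (without Kaede-green replicate 4 at 24h), over both colours from 24 to 337 without the same libraries, and for the interaction from 2 (without Kaede-red replicate 3 at 24h) to 155 (without Kaede-red replicate 1 at 24h).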
